A study of Homo sapiens with 9 samples.

Results

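The series sequenced RNA of NCI-H1155, a neuroendocrine line of human lung cancer, after foretinib, cabozantinib or the vehicle DMSO. The 6 libraries of cells given either inhibitor (cabozantinib replicates 3, 4 and 5, foretinib replicates 1, 2 and 4) were set here as 1 arm against the 3 DMSO libraries (replicates 2, 4 and 5), with each compound given equal weight. Each inhibitor was given at 1 µM, and cells were collected after 4 h, with treatment begun 24 h after plating. All groups shared the same line, medium and plating, no group carried an engineered allele, and results from 1 line cannot be carried to others. The labels call the libraries of a group biological triplicates. Genes were included when their mean over all 9 libraries was 1000 or more normalised reads, which 5488 of the 23369 genes in the table met. Of the remaining genes, 8208 were at 0 in every library. The level used to choose the genes is a mean over all groups. A gene low in 1 group can therefore pass it through the others. The values just around the limit were 1000.02 for MTM1 and 1000.29 for GAS5 inside it, and 999.457 for EML6 and 999.033 for MFSD6 outside it.

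Foretinib and cabozantinib block MET, KDR and several other receptor tyrosine kinases. The compounds share a quinoline joined through a phenoxy ring to a cyclopropane dicarboxamide, and foretinib differs by a fluorine on the phenoxy ring and a morpholine-bearing propoxy chain in place of a quinoline methoxy. Receptor tyrosine kinases feed the RAS, RAF, MEK and ERK cascade, in which each kinase phosphorylates the next. Active ERK raises transcription of immediate early genes such as EGR1 through ETS-family factors and SRF, and of the inhibitors that switch the cascade off again, among them the DUSP phosphatases and the Sprouty and SPRED proteins. In neuroendocrine lung cancer the lineage is held by basic helix-loop-helix factors such as NEUROD1, while the Notch pathway, through its repressor HES1, is known for opposing such factors. A response common to both compounds is of interest because the series concerns structurally similar inhibitors whose effects on cells differ.

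The libraries held 26996023 to 34062153 gene-assigned reads each, and the 5488 genes took between 89.6% and 90.5% of them. Among the 12642 genes that entered the tests, 16.3% or more were at 0 in each foretinib library, 4.41% to 5.48% in a cabozantinib library, 10.9% in DMSO replicate 2 and 5.30% and 5.58% in the other DMSO libraries. Few of the genes described here were at 0: 18, 9 and 29 of 5488 in the foretinib libraries, 1 in DMSO replicate 2 and none elsewhere. Of 12 neuroendocrine markers, 11 had a mean of 1000 or more, including CHGA, INSM1, NEUROD1 and SCG2, whereas STMN2 was at 0 throughout. PTPRC, CD3E and CD14 of leukocytes, COL3A1, DCN and PDGFRB of fibroblasts and KRT19 of epithelium were at 0 in all 9 libraries. The epithelial keratins KRT8 and KRT18 had means of 1672 and 2922, and COL1A2 of fibroblasts (781) and CD68 of leukocytes (203) were above 0 in every library. In bulk RNA of this kind, fewer cells of a type and less RNA per cell cannot be told apart.

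The response that the inhibitors shared was small against the spread between libraries. The groups differed in that spread. Weights estimated per treatment group, lower for a wider spread, were 2.03 for cabozantinib, 1.37 for DMSO and 0.36 for foretinib. The main fit used 1 spread for all groups. Across the 12642 tested genes, limma (on log2 of the value + 1) called 0 (0.0%) at an adjusted p under 0.05 for the mean of both compounds against DMSO. At an unadjusted p under 0.05 it found 168 genes higher (1.33%) and 227 lower (1.8%), a balance that turned to 342 higher and 143 lower with quantile-normalised values and was 123 to 400 in edgeR. Of the 5488 abundant genes, 90 (1.64%) were higher and 46 (0.838%) lower by that measure. With quantile-normalised values the split among the abundant genes was 81 higher to 77 lower, and with 1 library left out the numbers ran from 60 to 157 higher and from 24 to 160 lower, the highest without a foretinib library. The smallest adjusted p among the abundant genes was 0.685, for ANP32E, followed by 0.859 for EGR1, and the others were at 0.989 or above. On the recovered whole reads, edgeR's quasi-likelihood test also called 0 genes, with 523 at an unadjusted p under 0.05, while DESeq2 called 271, of which 254 had a library at 0. Only 11 of the 5488 abundant genes were among them, a smaller share than the 271 of all 12642 tested genes. These were ADI1, ANP32E, CBX3, DDX12P, KIAA1430, MUM1, NEUROD1, SHOC2, TPR and USP32 higher and EGR1 lower.

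Both compounds lay on the same side of DMSO, by their mean log2 values, for 3255 of the 5488 genes, 1614 (29.4%) higher and 1641 (29.9%) lower. The other 2233 (40.7%) lay on opposite sides. Both comparisons use the same 3 DMSO libraries, so an excursion of DMSO alone places a gene on the same side with both compounds. A stricter description is that all 6 inhibitor libraries lay beyond all 3 DMSO libraries. This held for 49 abundant genes above DMSO (0.893%) and 48 below (0.875%), next to 0.585% above and 1.08% below over all tested genes. Libraries that do not differ by treatment also separate this way in some genes, and how many was not tested. Leaving out a library can only keep or raise the count, because fewer libraries then have to be separated. Leaving out any 1 gave between 73 and 146 genes above and between 71 and 139 below. The highest numbers were without DMSO replicate 2 (above) and DMSO replicate 4 (below). This rise does not show that the count rests on a particular library. The median difference over the 5488 genes was -0.02 on the log2 scale, with -0.03 for foretinib and 0.01 for cabozantinib.

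**Figure D1:**
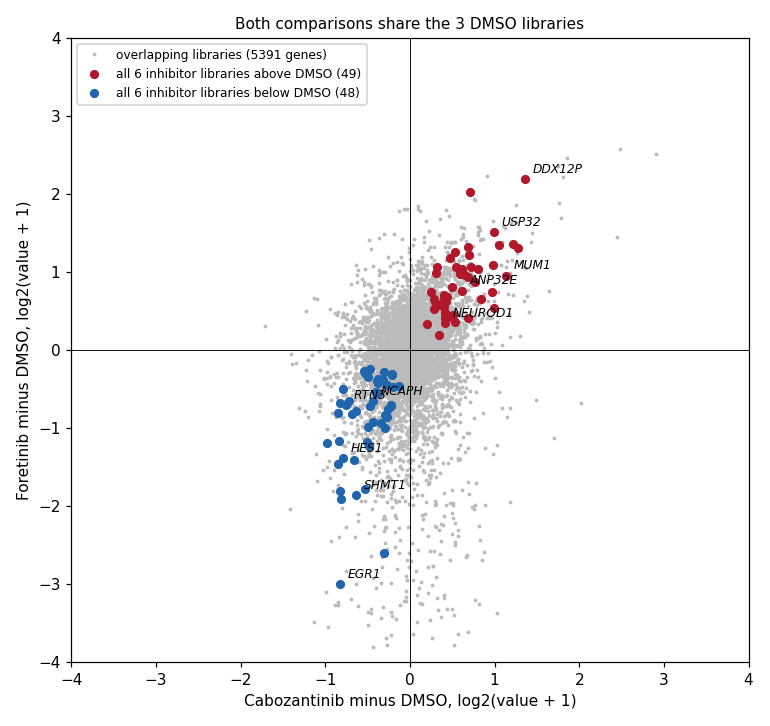
Each point is 1 gene with a mean of 1000 or more, placed by the cabozantinib minus DMSO (x axis) and foretinib minus DMSO (y axis) differences in log2(value + 1), and the axes share the DMSO libraries; 17 genes lie outside the plotted range of 4 log2 units. The 49 genes in red had all 6 inhibitor libraries above DMSO and the 48 in blue had all 6 below, with EGR1 lowest among the blue points and DDX12P highest among the red points drawn; CTSL2, also above DMSO, lies outside the range.

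Differences within the sets of 49 and 48 genes were modest. The ratio of the inhibitor mean to the DMSO mean ran from 1.20-fold for SRP9 to 3.62-fold for DDX12P among the genes above, with a median of 1.67-fold, and 12 of the 49 reached 2-fold. Among those below it ran from 1.20-fold lower for CTTN to 2.78-fold lower for EGR1, and 5 of the 48 reached 2-fold. Foretinib lay farther from DMSO than cabozantinib in 37 of the 49 and in 37 of the 48, next to 3566 of all 5488 genes. All 3 foretinib libraries lay beyond all 3 cabozantinib libraries in 9 and 10 of them. How often the compounds separate this way over all 5488 genes was not counted, so these numbers have no share to be set against. DMSO replicate 2, which had more zeros than the other DMSO libraries, was the lowest DMSO library in 19 of the 49 genes above, a share of 38.8% next to 35.8% over all 5488, and the highest in 19 of the 48 below, 39.6% next to 37.8%. Because the limit is on the mean over all groups, 17 of the 49 genes had a DMSO mean under 1000, and 6 of the 48 had an inhibitor mean under 1000. Among the 17 were DDX12P, with means of 394 in DMSO and 1426 with the inhibitors, and CTSL2, USP32, GATA4, NEUROD2, ST18, FIGNL1 and RALB. These genes passed the limit through the inhibitor libraries, so the numbers that reached 2-fold depend on the limit.

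EGR1, a zinc finger transcription factor that is one of the best known immediate early genes, had the largest reduction of the genes without overlap. Its normalised read counts were 4430, 4525 and 4944 in DMSO, 2330, 2610 and 2913 with cabozantinib, and 1029, 902 and 208 with foretinib. Every inhibitor library lay below every DMSO library, and every foretinib library below every cabozantinib library. The mean was 2.78-fold lower with the inhibitors together, 1.77-fold lower with cabozantinib and 6.50-fold lower with foretinib. On the log2 scale the pooled difference was -1.91, with a 95% interval from -2.89 to -0.94 and an adjusted p of 0.859 in limma. Over 20 alternatives the adjusted p of EGR1 ran from 0.00105, in DESeq2, to 1.00. The difference was between -2.12 and -1.55 with any 1 library left out. HES1, the repressor that carries out much of Notch signalling, had the same order of group means. It stood at 2734, 3497 and 3287 in DMSO, 1748, 2022 and 1736 with cabozantinib, and 1452, 557 and 2185 with foretinib. All 6 inhibitor libraries were below DMSO, but the compounds overlapped each other. The mean was 1.96-fold lower and the pooled log2 difference -1.08 (95% interval -1.95 to -0.22, adjusted p 0.989 in limma).

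The proximal promoters of EGR1 and HES1 are shown because these were the only members of the immediate early, ERK-dependent and Notch gene lists in which no inhibitor library reached the DMSO range, and CBX3 is shown as a gene on the other side. Each sequence is the 250 bases before the annotated start in RefSeq (GRCh38.p14), written 5′ to 3′ on the gene's strand. Capitals mark matches, on either strand, to the CArG box bound by SRF, CCGGAA of ETS-family factors, TGGGAA of RBPJ, CACGTG (the E-box), CACAAG (the N-box) and TGACGTCA (the cAMP response element). EGR1 lies at chr5:138465229-138465478 on the plus strand, HES1 at chr3:194135898-194136147 on the plus strand and CBX3 at chr7:26201193-26201442 on the plus strand.
EGR1: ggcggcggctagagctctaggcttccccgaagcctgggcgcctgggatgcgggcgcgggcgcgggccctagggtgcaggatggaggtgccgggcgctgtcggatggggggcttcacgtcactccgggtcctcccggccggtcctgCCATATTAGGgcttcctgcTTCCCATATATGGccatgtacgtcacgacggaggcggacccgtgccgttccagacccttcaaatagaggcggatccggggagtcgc
HES1: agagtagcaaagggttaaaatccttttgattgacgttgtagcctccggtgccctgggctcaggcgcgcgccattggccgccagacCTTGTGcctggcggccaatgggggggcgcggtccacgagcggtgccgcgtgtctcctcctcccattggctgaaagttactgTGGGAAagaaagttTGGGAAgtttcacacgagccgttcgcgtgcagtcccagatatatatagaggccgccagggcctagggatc
CBX3: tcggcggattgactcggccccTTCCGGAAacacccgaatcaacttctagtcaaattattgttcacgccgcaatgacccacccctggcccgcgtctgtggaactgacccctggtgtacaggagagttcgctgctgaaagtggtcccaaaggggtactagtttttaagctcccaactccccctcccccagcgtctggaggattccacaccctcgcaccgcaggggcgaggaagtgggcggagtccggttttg
Counting back from the base before the start, the EGR1 window holds the CArG boxes CCATATTAGG at -105 to -96 and CCATATATGG at -83 to -74, and a reverse-strand match to TGGGAA at -86 to -81 that overlaps the second of them. HES1 has TGGGAA at -84 to -79 and at -70 to -65 and a reverse-strand N-box at -165 to -160. CBX3 has overlapping forward and reverse matches to CCGGAA between -229 and -222. A CArG box occurred in 312 of 27305 RefSeq promoter windows of this length (1.14%), in 38 of the 4162 abundant genes with a window (0.913%), in 0 of 31 of the genes above DMSO and in 1 of 33 below, which was EGR1. TGGGAA occurred in 21.1% of all windows, 18.9% of those of abundant genes, 3 of 31 above and 6 of 33 below. CCGGAA occurred in 14.8% of all windows, 29.2% of those of abundant genes, 8 of 31 above and 8 of 33 below. These are matches of letters in the reference and not measured binding.

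**Figure D2:**
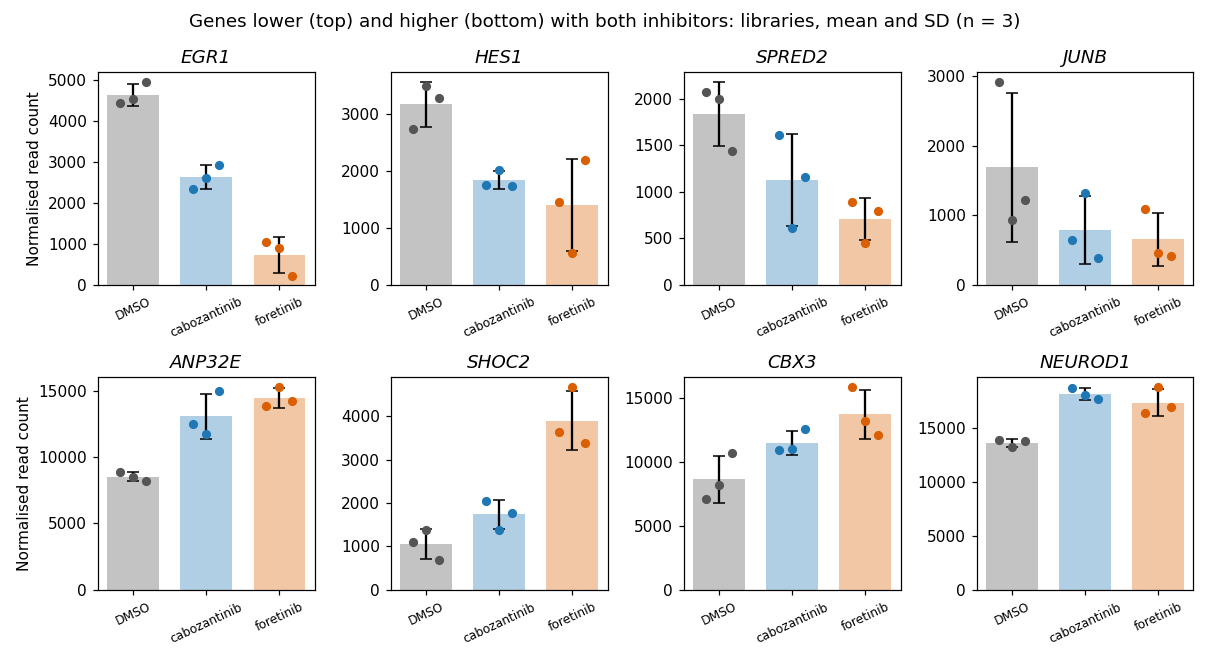
Normalised read counts of 8 genes in the 9 libraries (points), with the group mean (bars from 0) and SD (n = 3 libraries per group). EGR1 and HES1 are below DMSO in all 6 inhibitor libraries, SPRED2 and JUNB overlap DMSO, and ANP32E, CBX3 and NEUROD1 are above DMSO in all 6, whereas SHOC2 overlaps by 1 cabozantinib library.

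Of the 10 immediate early genes abundant enough to be included (35 listed), 6 were lower and 2 higher with both compounds, and 1, EGR1, had no overlap. The list's median was -0.43, next to -0.02 over all 5488 genes. For this and every later list, the shares over all 5488 genes were 29.4% higher and 29.9% lower with both compounds. JUNB, a subunit of the AP-1 transcription factor, read 2915, 931 and 1215 in DMSO, 645, 1323 and 386 with cabozantinib and 1090, 458 and 405 with foretinib. DMSO replicate 2 was the highest JUNB library, and the difference was -1.22 (95% interval -2.58 to 0.13) with all libraries and -0.74 without DMSO replicate 2. ID1 and ID3, inhibitors of basic helix-loop-helix factors, were at -0.75 and -0.71, and KLF6, a zinc finger factor, was at -1.29 with foretinib replicate 1 and at -0.21 without it. MCL1, a survival protein of the BCL2 family, was on the other side at 0.55, and at 0.25 without DMSO replicate 4.

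ERK feedback genes and other ERK-dependent transcripts were mostly on the lower side, 7 of 10 with both compounds and 2 higher, with a list median of -0.37 and none without overlap. SPRED2, a membrane adaptor that restrains RAS, was the only one at an unadjusted p under 0.05. Its counts were 2067, 1998 and 1436 in DMSO, 1605, 610 and 1162 with cabozantinib and 884, 451 and 790 with foretinib. Only cabozantinib replicate 3 entered the DMSO range, and the pooled difference was -1.10 (95% interval -2.14 to -0.06), or 2.00-fold lower. SPRED1, its paralogue, read 1348, 1658 and 1637 in DMSO, 752, 919 and 1028 with cabozantinib and 581, 1636 and 643 with foretinib, so that foretinib replicate 2 alone stayed at the DMSO level (-0.82, 95% interval -1.86 to 0.22). DUSP6, the phosphatase specific for ERK, read 3561, 2858 and 3247 in DMSO and 1956, 1842 and 2427 with cabozantinib, without overlap between these groups. With foretinib, DUSP6 read 1426, 3723 and 3340, of which the last pair lay at or above the DMSO level, for a pooled difference of -0.47 (-0.25 without foretinib replicate 1). VGF, a secreted neuroendocrine peptide precursor, was at -0.36 (-0.22 without foretinib replicate 2), the Sprouty protein SPRY4 at -0.38 (-0.13 without DMSO replicate 4) and the phosphatase DUSP4 at -0.15 (-0.10 without foretinib replicate 1). ETV5, an ETS factor, ranged from 7 to 3375 among the foretinib libraries and was at -1.37, or -0.10 without foretinib replicate 2. ETV1, of the same ETS subfamily, was on the higher side at 1.82, and this rested on DMSO replicate 2, at 40.8 next to 1162 and 3039 in the other DMSO libraries: without it the difference was -0.01. PHLDA1, a pleckstrin-homology protein, was at 0.55, and at 0.27 without DMSO replicate 2.

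The kinases and adaptors of the RAS to ERK cascade itself showed 2 of 13 genes higher and 6 lower with both compounds, a median of -0.14 and none at an unadjusted p under 0.05. GRB2, the adaptor that joins receptors to SOS, was at -0.60 (-0.91 without foretinib replicate 1) and the kinase BRAF at -0.53. Among 7 tyrosine kinases, 4 were higher and 1 lower, with a median of 0.20: PTK2, which encodes FAK, was at 0.24, the ABL kinase ABL2 at 0.49, CSK, which phosphorylates the SRC tail, at 0.41 and the receptor FGFR1 at 0.20. Each of these 4 values moved by over 1.5 times with 1 library left out, to 0.05, 0.17, 0.10 and 0.05 at the least, and none had an interval that left out 0.

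SHOC2, which is on no list here, is a leucine-rich scaffold that joins MRAS and the catalytic subunit of protein phosphatase 1 into a complex that removes an inhibitory phosphate from RAF. Its counts were 1100, 1386 and 678 in DMSO, 2052, 1379 and 1779 with cabozantinib and 3647, 4669 and 3383 with foretinib. The foretinib libraries lay above all others, and cabozantinib replicate 4, at 1379, was the only inhibitor library not above the highest DMSO library, at 1386. SHOC2 was 2.67-fold higher with the inhibitors together, 3.70-fold with foretinib and 1.65-fold with cabozantinib, with a pooled log2 difference of 1.35 (95% interval 0.61 to 2.08, adjusted p 0.989 in limma, and from 0.00478 in DESeq2 to 1.00 over 20 alternatives). PPP1CC, which encodes a catalytic subunit of protein phosphatase 1, was above DMSO in all 6 libraries at 0.44 (95% interval -0.03 to 0.92). Its counts were 2886, 2866 and 3640 in DMSO, 4120, 5495 and 4023 with cabozantinib and 3841, 3697 and 4437 with foretinib. PIK3CA, the catalytic subunit of phosphoinositide 3-kinase, was at 1.10, and at 0.53 without DMSO replicate 5.

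Of 27 listed Notch pathway genes, 6 were abundant enough to be included. With both compounds none of the 6 was higher and 4 were lower, next to 29.4% and 29.9% over all 5488 genes. The list median was -0.41, -0.60 with foretinib and -0.29 with cabozantinib. Beside HES1, RBPJ, the DNA-binding factor of the pathway, read 3883, 3387 and 2365 in DMSO, 2352, 3116 and 2882 with cabozantinib and 2973, 1423 and 1315 with foretinib. The RBPJ groups overlapped, and the pooled difference was -0.51 (95% interval -1.21 to 0.20). JAG2, a Notch ligand, was at -1.94, but foretinib replicate 4 had 6.3 normalised reads and without it the difference was -0.79. MAML1, a coactivator, was at -0.31 (-0.21 without foretinib replicate 1).

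Among neuroendocrine genes, 10 of 17 were higher and 2 lower with both compounds, with a median of 0.15. NEUROD1 was the only one without overlap. It stood at 13907, 13249 and 13806 in DMSO, 18787, 18076 and 17709 with cabozantinib and 16387, 18814 and 16951 with foretinib. The DMSO libraries lay close together, and the lowest inhibitor library, at 16387, was above the highest of them. The mean was 1.30-fold higher, the pooled log2 difference 0.38 (95% interval 0.12 to 0.64) and the adjusted p 0.989 in limma, with a range from 0.0263 in DESeq2 to 1.00 over 20 alternatives. NEUROD2, a close relative that is on no list here, also cleared DMSO, at 0.81 (95% interval -0.11 to 1.73). It had 909, 592 and 948 reads in DMSO, 1358, 1517 and 1029 with cabozantinib and 1459, 1196 and 2056 with foretinib. ST18, a zinc finger factor also on no list, was at 0.90 without overlap (95% interval -0.13 to 1.92). In it 1 foretinib library was at 3913 and the others no higher than 1659. The granule proteins SCG2 and SCG3 were on the lower side, at -0.27 (-0.16 without foretinib replicate 2) and -0.34. Synaptic genes without overlap, on no list either, lay on both sides. SH3GL2, an endophilin of synaptic vesicle uptake, was at 1.28 (0.56 without DMSO replicate 2), and UNC13A, a vesicle-priming protein, at -0.40.

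ANP32E, a chaperone that removes the histone variant H2A.Z from chromatin, had the smallest p of all abundant genes. It stood at 8895, 8527 and 8173 in DMSO, 12496, 11763 and 15019 with cabozantinib and 13841, 15277 and 14243 with foretinib. The inhibitor groups lay above the DMSO group with no overlap, the mean was 1.61-fold higher (1.53-fold with cabozantinib and 1.69-fold with foretinib), and the log2 difference was 0.69 (95% interval 0.38 to 0.99). CBX3, the heterochromatin protein HP1 gamma, read 7061, 8157 and 10658 in DMSO, 10931, 10991 and 12543 with cabozantinib and 15833, 13215 and 12072 with foretinib. The highest DMSO library was only just below the lowest inhibitor library, and CBX3 was 1.46-fold higher (0.56, 95% interval 0.20 to 0.92). TOP2B, a type II DNA topoisomerase, cleared DMSO at 0.53, with 6979, 6031 and 8948 reads in DMSO and 9135 to 14636 across the inhibitors. TPR, the filament protein of the nuclear pore basket, overlapped by 1 cabozantinib library, at 0.51 (95% interval 0.16 to 0.86). BCOR, a polycomb-associated corepressor, cleared DMSO at 0.41 with the same difference for each compound, 0.41.

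ANP32E, CBX3, TOP2B and BCOR were named for their values and are not on the chromatin list. That list was balanced, with 14 of 40 higher, 11 lower, none without overlap and a median of -0.02. SMARCA5, the ISWI remodelling ATPase, was its only member at an unadjusted p under 0.05, at 0.52, and at 0.25 without DMSO replicate 2. Histone variants and HMG proteins had 9 of 15 higher and 3 lower, with a median of 0.16. HMGB1 was at 0.31, and at 0.20 without DMSO replicate 4. HMGN3 was at 0.24, and at 0.04 without DMSO replicate 2. Replication-dependent histones were split 7 higher and 7 lower of 28, with medians of 0.29 with foretinib and -0.12 with cabozantinib. HIST1H4A cleared DMSO at 0.79 (0.39 without DMSO replicate 2), and HIST1H2AM overlapped at 0.51. Reads of such near-identical histone copies may be split by the counting, so these values are uncertain. Nuclear transport genes, TPR included, had 5 of 23 higher and 7 lower.

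**Figure D3:**
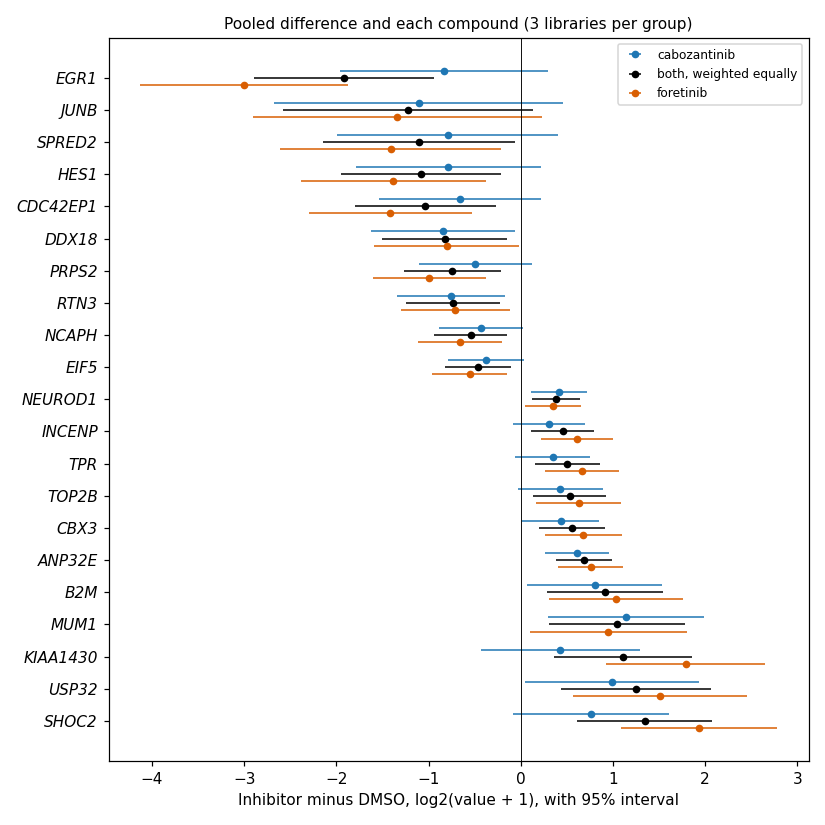
Pooled difference against DMSO on the log2(value + 1) scale (black, 95% interval) for 21 genes, with each compound's own difference above and below it (blue cabozantinib, orange foretinib; 3 libraries per group). The pooled interval leaves out 0 for all of them except JUNB, which follows from the choice, as most were picked for a small unadjusted p. None passed the adjusted threshold in limma.

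Other genes with the smallest p on the higher side were mostly on no list. USP32, a deubiquitinating enzyme, read 601, 677 and 1090 in DMSO, 1578, 1393 and 1589 with cabozantinib and 1883, 2294 and 2368 with foretinib, 2.35-fold higher without overlap. MUM1, a PWWP-domain protein, read 1030, 928 and 1102 in DMSO, 2123, 2693 and 1973 with cabozantinib and 1828, 1555 and 2685 with foretinib, 2.22-fold higher with cabozantinib and 1.98-fold with foretinib. B2M, the light chain of class I histocompatibility molecules, read 1121, 2118 and 1476 in DMSO, 2632, 2354 and 2995 with cabozantinib and 3034, 2855 and 3458 with foretinib, 1.84-fold higher without overlap. B2M was the only such member of 8 interferon and NF-kB targets, whose median was 0.00. KIAA1430 was higher mainly with foretinib, 3388, 3215 and 3478 reads against 693, 1163 and 1133 in DMSO, while its cabozantinib libraries of 1400, 1523 and 1042 overlapped DMSO. DDX12P had the widest ratio, 3.62-fold, and is annotated as a pseudogene of the helicase gene DDX11, so reads may be shared between the copies. CTSL2, a cathepsin, cleared DMSO with DMSO replicate 2 at 0, and its difference of 4.41 became 1.23 without that library. RYR2, a calcium release channel, was at 2.16 and ADI1, an enzyme of methionine salvage, at 1.73, both with overlapping groups. GATA4, a zinc finger transcription factor, cleared DMSO at 0.96.

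On the lower side, RTN3 followed EGR1 in the order of p among genes without overlap. RTN3, a reticulon that shapes the endoplasmic reticulum, read 8854, 5769 and 7061 in DMSO, 3717, 3741 and 5351 with cabozantinib and 3189, 5067 and 5106 with foretinib. All inhibitor libraries were below DMSO, 1.66-fold lower in the mean, with differences of -0.76 and -0.71 for cabozantinib and foretinib. PRPS2, a synthetase of the ribose phosphate donor for nucleotides, read 4864, 4927 and 4287 in DMSO, 2673, 3475 and 3976 with cabozantinib and 1917, 2940 and 2325 with foretinib. It was 1.63-fold lower, -0.74 on the log2 scale (95% interval -1.27 to -0.21). CDC42EP1, an effector of the GTPase CDC42, was 1.95-fold lower without overlap, at -1.04 (95% interval -1.80 to -0.27). ZNF746, a zinc finger repressor, was at -0.68 without overlap, and POLR2E, a subunit shared by the nuclear RNA polymerases, was at -1.03 with cabozantinib replicate 3 inside the DMSO range. SLC25A22, a mitochondrial glutamate carrier, was at -1.16, and INTS2, a subunit of Integrator, at -1.36, both without overlap. SCAF4, which acts at the RNA polymerase II tail, was at -0.81 with overlap (-0.53 without DMSO replicate 2). FNIP1, a partner of folliculin, had no overlap and a difference of -1.46, which was -0.55 without foretinib replicate 1 (26.3 reads).

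Mitotic genes lay on both sides, 24 of 58 higher and 15 lower with both compounds, with a median of 0.07. INCENP, the scaffold of the chromosomal passenger complex that holds Aurora B, read 5976, 7570 and 7010 in DMSO, 8088, 8427 and 8713 with cabozantinib and 9346, 11142 and 10758 with foretinib. Its 3 groups did not overlap at all, and the pooled difference was 0.45 (95% interval 0.12 to 0.79). The chromokinesin KIF4A cleared DMSO at 0.40 (95% interval 0.01 to 0.80). NCAPH, the kleisin of condensin I, was on the opposite side, with 8117, 6273 and 8389 in DMSO, 5850, 5213 and 5711 with cabozantinib and 5287, 4838 and 4275 with foretinib, or 1.46-fold lower. NCAPG, another condensin I subunit, was at 0.44 and overlapped DMSO (0.28 without DMSO replicate 5). The kinase PLK1 was at -0.66 (95% interval -1.32 to -0.01), with cabozantinib replicate 3 inside the DMSO range, and the cyclin CCNB1 at 0.35 (0.22 without DMSO replicate 2). DNA replication genes were even, 12 of 41 higher and 12 lower, and POLD2, a DNA polymerase delta subunit, was the only one at an unadjusted p under 0.05, at -0.74. The mismatch repair gene MSH3, on no list, was below DMSO in all 6 libraries at -1.08 (95% interval -2.02 to -0.15).

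Genes of protein synthesis had single members without overlap. Cytosolic ribosomal protein genes had 24 of 75 higher, 10 lower, none without overlap and a median of 0.04. Translation factors had 8 of 40 higher and 15 lower, and the start-codon factors EIF5 and EIF1AX lay on opposite sides. EIF5, which triggers hydrolysis of GTP on EIF2, read 21399, 18504 and 16694 in DMSO, 15058, 16568 and 12185 with cabozantinib and 10093, 13664 and 15115 with foretinib, 1.37-fold lower without overlap. EIF1AX was at 0.44 without overlap, and at 0.17 without DMSO replicate 2, in which it read 8431 next to 14836 and 14910. Genes of ribosome biogenesis that MYC is known to drive had 6 of 32 higher and 11 lower, with a median of -0.05. MYBBP1A, a nucleolar protein of that list, was below DMSO in all libraries at -0.76 (-0.49 without DMSO replicate 2). The nucleolar helicase DDX18 read 3045, 2825 and 3440 in DMSO, 1907, 1786 and 1498 with cabozantinib and 1912, 1184 and 2453 with foretinib, 1.73-fold lower without overlap. Other nucleolar proteins without overlap lay on both sides, BMS1 at 0.47 and UTP3 at -0.51. MYCN, a transcription factor of the MYC family, was at 0.37 (95% interval -0.22 to 0.96), and at 0.23 without DMSO replicate 5.

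SHMT1, the cytosolic serine hydroxymethyltransferase of folate metabolism, was below DMSO in all libraries, with 1699, 1861 and 2296 reads in DMSO, 1291, 1519 and 994 with cabozantinib and 643, 1015 and 233 with foretinib, 2.06-fold lower. It was the only such member of 23 ATF4 and amino acid response genes, of which 7 were higher and 6 lower. MAT2A, which makes S-adenosylmethionine, was at -0.26 without overlap. Nuclear-encoded respiratory chain genes had 19 of 57 higher and 10 lower, and the complex I subunit NDUFS8 (0.54) and the cytochrome oxidase subunit COX5B (0.44) cleared DMSO. NNT, the mitochondrial transhydrogenase, was below it at -0.84. ER chaperones had 2 of 17 higher and 8 lower, with a median of -0.13. Proteasome genes had 9 of 36 higher and 10 lower, with PSMC1 above DMSO in all libraries (0.26) and PSMD1 at 0.40 (0.26 without DMSO replicate 5). Lysosome and autophagy genes had 6 of 30 higher and 11 lower. ATP6V0A1, a proton pump subunit, was below DMSO in all libraries at -1.32, and at -0.72 without foretinib replicate 2 (178 reads). In cholesterol synthesis the compounds' medians were 0.25 for foretinib and -0.18 for cabozantinib, with 4 of 16 higher and 4 lower. Among actin genes under SRF, 10 of 26 were higher and 8 lower. MYL6, a myosin light chain, was the only one of them at an unadjusted p under 0.05, at 0.43.

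**Figure D4:**
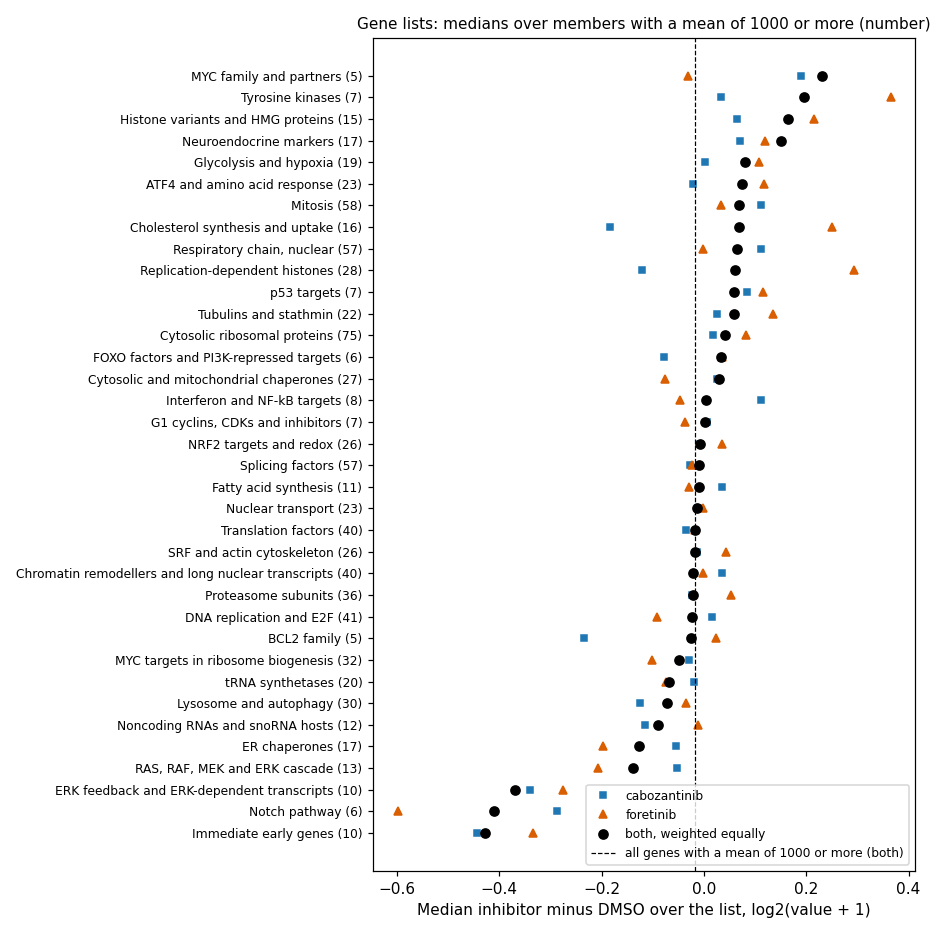
Median difference against DMSO on the log2(value + 1) scale over the members of each gene list with a mean of 1000 or more (their number in brackets), for both compounds weighted equally (black), cabozantinib (blue squares) and foretinib (orange triangles), with the median over all such genes dashed. Immediate early, Notch and ERK-dependent genes have the lowest medians, between -0.43 and -0.37, and most lists lie within 0.2 of 0.

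The compounds were also set directly against each other, at the same dose and time, as 1 pair over the 12642 genes. limma called 0 genes (0.0%) between them at an adjusted p under 0.05, with 231 (1.83%) higher and 1021 (8.08%) lower with foretinib at an unadjusted p under 0.05. Of the 5488 abundant genes 441 (8.04%) reached that unadjusted level, and so did 1 of the 49 genes above DMSO and 2 of the 48 below. EGR1 was lower with foretinib than with cabozantinib by a log2 difference of -2.17 (95% interval -3.30 to -1.04, adjusted p 0.377 in limma). SHOC2 was higher with foretinib by 1.17 (95% interval 0.33 to 2.02) and KIAA1430 by 1.36 (95% interval 0.50 to 2.23). For ANP32E the difference between the compounds was 0.15, with an interval from -0.20 to 0.50. For NEUROD1 it was -0.07 (-0.37 to 0.24), for HES1 -0.60 (-1.60 to 0.40) and for MUM1 -0.19 (-1.04 to 0.66). TUBA1A, an alpha tubulin at 0.30 in the pooled comparison, differed between the compounds by 0.52 (95% interval 0.19 to 0.85), and PTGES3, the HSP90 cochaperone p23 at 0.61, by 0.78 (95% interval 0.17 to 1.38). For that pair the pooled value is an average of a foretinib difference of 0.56 and a cabozantinib difference of 0.04 for TUBA1A, and of 1.00 and 0.22 for PTGES3.

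Precision depended on abundance. The median distance from the estimate to the end of its 95% interval was 0.80 log2 units over the 5488 genes, and 0.98 for the 3474 genes with a mean from 1000 to 3000, 0.55 for the 1638 from 3000 to 10000 and 0.33 for the 376 at 10000 or more. In the top class 123 genes (32.71%) were higher and 79 (21.01%) lower with both compounds, next to 29.4% and 29.9% over all 5488. All inhibitor libraries lay above DMSO in 6 genes of that class (1.596%) and below in 3 (0.798%), next to 0.893% and 0.875%. Over all 12642 tested genes the same distance was 1.87, which is wider than a 2-fold difference.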

How the data were processed

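RNA-seq of 9 libraries, 3 per group, was used. The deposited values are a signal per gene and library, the authors' read counts divided by 1 size factor per library, as 100% of values being whole multiples of 1 step (tolerance 1e-06 of a read) shows. Per the submitters' processing notes, HTSeq, DESeq2, Cufflinks 2.2.1, TopHat2 2.0.13 and build hs37d5 were used. Their roles, the strand setting and the annotation are not given in the sources at hand, so overlapping antisense genes and near-identical copies are uncertain. Libraries were grouped by the labelled treatment.

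The 12642 genes that reached 10 in 3 or more libraries were fitted with limma 3.58.1 in R 4.3.3 (limma-trend, log2(value + 1)), with a mean per group and 1 spread over all 9 libraries. The contrast was the mean of both compounds minus DMSO, two-sided, Benjamini-Hochberg adjusted over all tested genes. The fit was tested on simulated data with the same spread setting for every gene and library. The groups of these data differed in spread, which that simulation does not cover. p-values measure the spread between these libraries. Fold changes are ratios of group means, and log2 differences are on the log2(value + 1) scale. "Lower", "higher" and "at" with a value describe estimates and not calls.

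Alternatives were edgeR 4.0.16 and DESeq2 1.42.0 on recovered reads, other pseudocounts, filters, scalings and weights, a replicate block and leaving out each library. Named genes were, among those with both compounds on 1 side, the 15 with the smallest p and the 8 with the largest difference without overlap per direction, and the 2 with the smallest p of each list; the text gives some of them. Other genes named were chosen after their values were seen. Members and lists were chosen with earlier results of these data known. Promoter windows came from RefSeq, matched by symbol for 4162 of the 5488 genes. Some results are not reported here.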

Additional observations from a re-analysis of the deposited data

Results flagged for a closer look

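Among the 101 genes given with a difference or a fold, 10 had a library far from the other 5 inhibitor libraries by Dixon's criterion. Its chance rate of about 1 in 20 holds for normal values of 1 group. Here it was applied to untransformed values of both compounds together, so the 10 cannot be set against that rate. Foretinib replicate 2 was such a library in 5 of them. It was the highest for ETV1 at 2849.3 normalised reads, DDX12P at 3032.7, HIST1H4A at 4948.5 and PIK3CA at 3829.8, and the lowest for UTP3 at 1961.9. Foretinib replicate 4 was the highest for TOP2B at 14636 and BMS1 at 6153.2. Foretinib replicate 1 was the highest for GRB2 at 2835.1 and ST18 at 3913. Cabozantinib replicate 3 was the highest for PTP4A1 at 8855.1. In ETV1 and PIK3CA other inhibitor libraries lay within the DMSO range. In GRB2 the other 5 were below every DMSO library and foretinib replicate 1 was above. In the other 7 genes all 6 inhibitor libraries lay beyond DMSO on 1 side. The part of depth or of genes at 0 in these libraries was not tested.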

How the results depend on the processing

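The count of 0 genes called at an adjusted p under 0.05 held in the edgeR fit, in all limma alternatives and with each library left out, and DESeq2 gave 271, the cause of which was not tested (254 of them had a library at 0, and 569 genes had no adjusted p). Of the abundant genes at an unadjusted p under 0.05, the 90 higher became 162 in DESeq2 and between 60 and 157 without 1 library. The 46 lower became 77 with quantile normalisation, 29 with 1 mean for all 6 inhibitor libraries, 101 with a weight per treatment group, 70 in DESeq2 and between 24 and 160 without 1 library. The replicate block on the title numbers gave 83 lower, 107 higher and 0 called. Deviations from the group means over the abundant genes correlated between -0.02 and 0.03 in 5 same-numbered pairs. In 22 other pairs they correlated between -0.03 and 0.04. Whether same-numbered libraries share a batch in some genes was not tested. Quantile normalisation moved the median over all tested genes from -0.16 to -0.04 and over the abundant genes from -0.02 to -0.05. Of the 49 and 48 genes without overlap, it kept 39 and 47 and TMM scaling kept 46 and 47. A mean of 3000 or more left 18 above and 20 below, by the smaller number of genes, and leaving out 1 library, added after seeing the data, gave 73 to 146 above and 71 to 139 below, where fewer libraries make an overlap less likely. Of 101 genes, 100 kept their direction in every alternative run. Many of the 101 were chosen for a small p or for no overlap, which leaves little room for a reversal. That number is therefore no test of their direction. ETV1 was at -0.0094 without DMSO replicate 2 and at up to 3.08 without another library. In 35 the difference was smaller by over 1.5 times without 1 library. The intervals of 3 libraries per group limit what can be shown, and they were wider for genes with fewer reads.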

Other observations

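Genes of signalling and cell shape that were on no list here also lay beyond DMSO in all 6 inhibitor libraries, chosen after their values were seen. PTP4A1, a membrane-anchored tyrosine phosphatase, read 6540, 5802 and 4595 in DMSO and 7486 to 8855 with the inhibitors, a log2 difference of 0.47 (95% interval 0.10 to 0.85). The small GTPase RALB, an effector arm of RAS, was at 0.69 and the G protein subunit GNB2 at 0.47, with intervals that included 0. SMAD4, the shared mediator of TGF-beta and BMP signals, was on the lower side at -0.47, with 3691, 3073 and 3255 reads in DMSO, 2796, 2744 and 3027 with cabozantinib and 1237, 2278 and 2968 with foretinib, and at -0.29 without foretinib replicate 1. FSCN1, the actin-bundling protein fascin, read 3423, 3801 and 2943 in DMSO, 2479, 2587 and 2158 with cabozantinib and 1506, 2360 and 821 with foretinib (-0.86, 95% interval -1.60 to -0.13), and CTTN, the actin-binding protein cortactin, was at -0.26.

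CKB, the brain-type creatine kinase, was above DMSO in all 6 libraries, with 1754, 1790 and 1263 reads in DMSO and 2087 to 3861 with the inhibitors (0.78, 95% interval 0.13 to 1.44). CHM, an escort protein for the lipid attachment of RAB GTPases, was below it, with 2358, 2900 and 2458 in DMSO, 1718, 1325 and 1299 with cabozantinib and 1750, 554 and 1530 with foretinib, a log2 difference with a 95% interval from -1.88 to -0.12. FIGNL1, an ATPase of recombination repair, was at 1.29, and at 0.70 without DMSO replicate 5. NUP54, a channel nucleoporin, was at -0.35, opposite to the pore basket gene TPR. Among 12 noncoding RNA genes, 1 was higher and 5 lower with both compounds, and TUG1 was the only one at an unadjusted p under 0.05, at -0.40 (95% interval -0.73 to -0.07) with overlapping groups.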
